A study of Rattus norvegicus with 18 samples.

Results

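Stellate cell and extracellular matrix genes were followed in rat liver as a list of 45 named genes, covering collagens, matrix glycoproteins and proteoglycans, the enzymes that crosslink or cut them, their inhibitors, and genes of stellate cells and myofibroblasts. A gene was read from its brightest probe set among those that the array annotation pairs with that symbol alone, which gave 41 of the 45 genes out of 18166 genes and 36685 probe sets on the array. Acta2, Cnn1, Tnc and Col6a1 had no such probe set and were not analysed here. Col5a1 had a further, dimmer probe set, which passed no test in any comparison. Of the 41 genes 37 were brighter than the median probe set, no detection calls were at hand, and the myofibroblast marker Acta2 could not be checked.

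The 18 livers came from adult male Sprague-Dawley rats, 3 in each of 6 groups, and each liver's RNA was hybridised to 1 Rat Gene 2.0 ST array. Naive rats are labelled with no procedure, and PHx rats lost 50% of the liver mass to partial hepatectomy alone. The other 4 groups had the same PHx with a controlled bleed of 3 ml from a femoral artery cannula. The bleeding rats had no named fluid, the F-RBC rats were resuscitated with fresh red blood cells, the S-RBC rats with red blood cells stored for 7 days, and the HAES rats with HAES 10%, a hydroxyethyl starch plasma expander. Livers were taken on day 1 after PHx. No sham-operated group is named in the labels, so resection cannot be told apart from anaesthesia and laparotomy. The RNA came from whole liver, so for every result given here fewer cells of a type and less RNA per cell cannot be told apart.

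Hepatic stellate cells lie between the sinusoidal endothelium and the hepatocytes and store vitamin A as retinyl esters. After injury they can turn into contractile myofibroblasts, which make fibrillar collagen, fibronectin and inhibitors of matrix proteases. In the regenerating liver the matrix around the sinusoids is first cut by proteases and later rebuilt, and type IV collagen of the basement membrane is part of that matrix.

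Promoters of 4 of the genes described below are printed because these genes fell together between PHx and HAES rats. The windows run from 250 bases before to 50 bases after the RefSeq start site on GRCr8, 5′ to 3′ on the strand of the gene, and RefSeq windows were matched for 24 of the 41 genes. Capitals mark 4 motifs that were searched on both strands. A CCAAT box has those letters, a GC box was read as GGGCGG, the core of a TATA box as TATAAA and an AP-1 motif as TGANTCA, and a match on the opposite strand is printed as its reverse complement. Col4a1 lies at chr16:84885347-84885646 on the plus strand and Col4a2 at chr16:84885471-84885770 on the minus strand, Timp1 at chrX:3771073-3771372 on the minus strand and Vim at chr17:81577011-81577310 on the plus strand.
Col4a1: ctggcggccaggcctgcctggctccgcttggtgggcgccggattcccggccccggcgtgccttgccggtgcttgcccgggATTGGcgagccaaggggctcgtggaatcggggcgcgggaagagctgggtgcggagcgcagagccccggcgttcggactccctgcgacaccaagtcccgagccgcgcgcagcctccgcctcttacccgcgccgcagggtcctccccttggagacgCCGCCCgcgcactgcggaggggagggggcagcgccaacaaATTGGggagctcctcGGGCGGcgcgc
Col4a2: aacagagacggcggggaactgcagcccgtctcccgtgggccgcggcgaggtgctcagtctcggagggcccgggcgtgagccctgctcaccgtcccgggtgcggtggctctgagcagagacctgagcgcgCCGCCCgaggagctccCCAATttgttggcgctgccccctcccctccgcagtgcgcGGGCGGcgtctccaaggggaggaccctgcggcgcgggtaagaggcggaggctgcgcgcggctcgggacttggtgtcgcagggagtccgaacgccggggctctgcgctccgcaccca
Timp1: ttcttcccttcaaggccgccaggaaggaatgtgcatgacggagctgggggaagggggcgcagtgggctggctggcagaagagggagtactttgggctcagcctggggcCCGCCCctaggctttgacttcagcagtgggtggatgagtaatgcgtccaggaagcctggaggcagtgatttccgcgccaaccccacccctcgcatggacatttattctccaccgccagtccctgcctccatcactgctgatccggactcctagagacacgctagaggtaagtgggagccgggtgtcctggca
Vim: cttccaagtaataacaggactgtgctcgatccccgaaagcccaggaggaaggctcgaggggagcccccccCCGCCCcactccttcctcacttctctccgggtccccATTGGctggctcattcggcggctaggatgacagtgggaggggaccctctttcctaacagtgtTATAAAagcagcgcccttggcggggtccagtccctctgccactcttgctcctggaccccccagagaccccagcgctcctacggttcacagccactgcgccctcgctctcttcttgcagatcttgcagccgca
The windows of Col4a1 and Col4a2, the chains of the most widespread type IV collagen, share 176 bases because the genes are transcribed away from each other from start sites 77 bases apart. The CCAAT box nearest the Col4a1 start site, and both GC boxes of that window, are the same bases as the boxes of the Col4a2 window. Over all 27457 promoters of this length a CCAAT box was present in 37.7% and a GC box in 34.9%, against 41.7% and 54.2% of the 24 windows of these genes. A TATA box was present in 14.3% of all promoters and in 16.7% of the 24, and an AP-1 motif in 7.33% and 8.33%. The matches are letters in a window and were not tested as sites.

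Facts of the whole data set bear on the values below. Array medians ran from 16.1 to 23.0 on the linear intensity scale, and all levels are given as log2(intensity + 16), on which changes of dim genes are understated. S-RBC replicate 1 stood apart, with a correlation of 0.911 to 0.938 with the other arrays, each of which reached at least 0.968 with another array. For 269 probe sets all 9 arrays of rats given red blood cells or HAES lay on the same side of the other 9, with 0 of the 41 genes among them, and the sources used here name no batch. The median of all probe sets was 0.14 higher in F-RBC than in naive rats and 0.10 higher than in PHx rats, so the changes in these comparisons stand beside those shifts. A gene is said to have passed the test at a limma p-value under 0.05 after Benjamini-Hochberg adjustment over all 36685 probe sets.

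The matrix and stellate cell genes were highest in PHx rats more often than in any other group. PHx gave the highest of the 6 group means for 22 of the 41 genes, among them Col1a2, Col4a1, Fbn1, Timp1, Tagln, Des, Vim and Pdgfrb, while it was highest for 10.6% of all probe sets. Bleeding rats gave the lowest mean for 14 of the 41 genes, against 16.4% of all probe sets, and F-RBC rats gave the lowest for 0, against 6.41%. Over the 6 groups 8 of the 41 genes (19.5%) passed the limma F-test, with 6.59% of all probe sets passing it. These were Col4a1, Fbn1, Matn3, Dcn, Vcan, Tagln, Vim and Lrat, with adjusted p between 0.00424 for Tagln and 0.0487 for Fbn1. A pairwise comparison added Col4a2, Loxl1, Mmp14 and Timp1, so that 12 genes and 20 changes between pairs of groups passed in all. Left out in turn, PHx replicate 2 raised the count of the F-test to 13, and naive replicate 1 or 2, PHx replicate 3 or bleeding replicate 3 lowered it to 5.

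**Figure D1:**
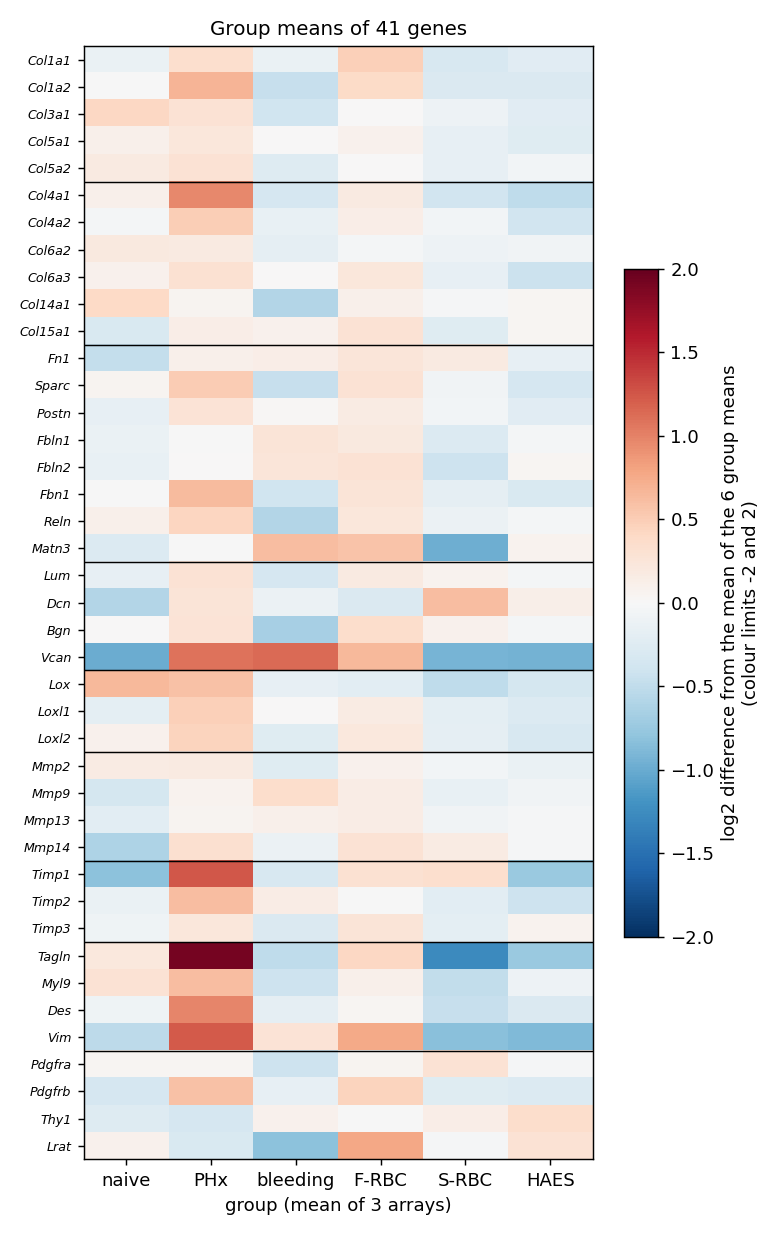
Group means of the 41 genes over 3 arrays each, as the difference from the mean of the 6 group means on the log2(intensity + 16) scale (red higher, blue lower, lines between gene roles). The PHx column holds the highest mean of 22 genes, with Tagln, Timp1, Vim and Vcan the deepest red.

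Within groups the rats differed. PHx replicates 1 and 3 held 36 and 35 of the 41 genes above their mean over 18 arrays, but PHx replicate 2 only 19. F-RBC replicates 2 and 3 held 40 and 39 and F-RBC replicate 1 held 13, and HAES replicate 3 held 31 against 7 and 2 in the other HAES rats. Median deviations of the 41 genes were 0.50, −0.01 and 0.39 in PHx replicates 1, 2 and 3, beside −0.02, −0.06 and 0.00 for all probe sets. In HAES replicates 1, 2 and 3 they were −0.29, −0.38 and 0.17, beside −0.07, −0.05 and 0.08.

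**Figure D2:**
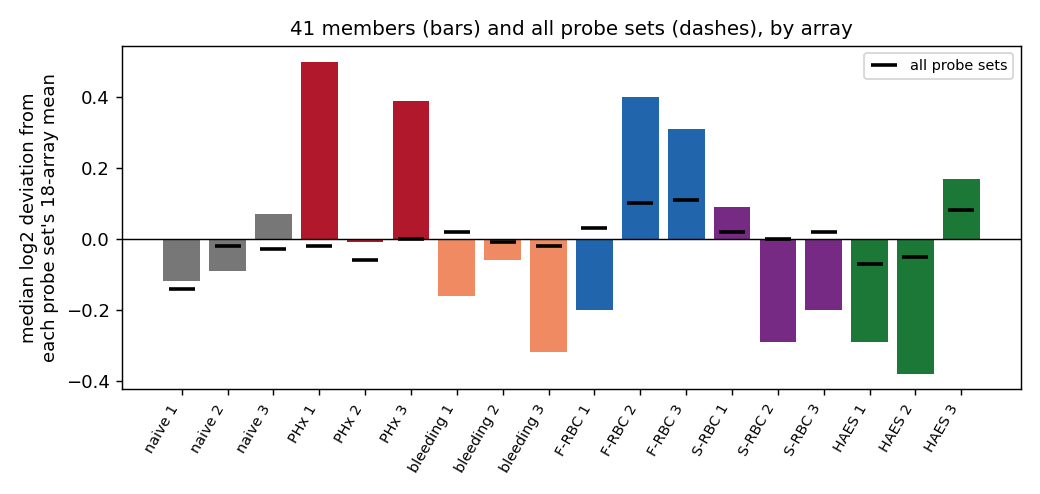
Median deviation of the 41 genes (bars) and of all 36685 probe sets (dashes) from each probe set's mean over 18 arrays, by array, in log2(intensity + 16). PHx replicate 2 (−0.01), F-RBC replicate 1 (−0.20), S-RBC replicate 1 (0.09) and HAES replicate 3 (0.17) lie away from the other rats of their groups.

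PHx rats were set against naive rats to see how these genes differed after the whole procedure. Of the 41 genes 34 were higher in PHx rats, with a median log2 difference of 0.42 against 0.03 over all probe sets, of which 57.3% were higher. The arrays of the groups did not overlap for 17 genes that were higher in PHx rats, a pattern found in 10.5% of all probe sets. No single gene passed the test (limma, 15 of 41 at an unadjusted p under 0.05), where 0.346% of all probe sets passed. The differences of Vcan (2.08 ± 0.46 SE, adjusted p = 0.0717), Timp1 (2.07, adjusted p = 0.0981), Vim (1.76, adjusted p = 0.0835), Tagln (1.70, adjusted p = 0.123) and Des (1.08, adjusted p = 0.217) came from limma. Without PHx replicate 2 the count rose from 0 to 7, with Des at 1.67 and an adjusted p of 0.0016.

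Tagln, an actin-binding protein of smooth muscle cells and myofibroblasts, had the widest range of group means of the 41 genes, 3.17 on the log2 scale. Its level was 8.01, 7.16 and 8.49 in PHx rats and 6.28, 6.17 and 6.12 in naive rats. In S-RBC rats it was 4.40, 4.53 and 5.21, and in HAES rats 5.19, 5.23 and 5.30. All PHx rats lay above all naive, S-RBC and HAES rats, and all S-RBC and HAES rats lay below all naive rats. Bleeding rats had 5.32, 6.03 and 5.06, also all below naive rats, and F-RBC rats had 5.40, 7.71 and 6.06, with F-RBC replicate 2 inside the range of PHx rats. Tagln fell by 3.17 ± 0.44 (SE) from PHx to S-RBC rats (limma, adjusted p = 0.00714) and by 2.65 ± 0.44 from PHx to HAES rats (limma, adjusted p = 0.00555). On the linear scale the mean intensity was 238 ± 108 (SD, n = 3) in PHx, 11.1 ± 8.74 in S-RBC and 21.9 ± 1.46 in HAES rats. The S-RBC intensities, 5.11 to 21.1, lay near or below the array medians, so the size of the fall is loosely set. Over 14 alternative fits (other scalings, offsets or tests, or 1 array fewer) it ran from −4.42 to −1.95 for S-RBC and from −3.27 to −1.75 for HAES rats. Both differences stayed past the threshold when any array of their groups was left out, with an adjusted p of at most 0.0413. Bleeding against PHx gave −2.42 (limma, adjusted p = 0.117) and F-RBC against PHx −1.50 (limma, adjusted p = 0.173), and the pairs share the PHx rats.

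Vim encodes vimentin, the intermediate filament of mesenchymal cells, which macrophages and endothelial cells also make. Its level was 9.76, 8.74 and 9.75 in PHx rats, against 7.64, 7.63 and 7.71 in naive, 7.50, 7.21 and 7.34 in S-RBC and 7.07, 7.48 and 7.36 in HAES rats. The PHx rats lay at least as high as 8.74, above every rat of these 3 groups. Bleeding rats had 9.25, 8.68 and 7.43 and F-RBC rats 7.97, 9.56 and 9.30, so both overlapped with PHx rats. Vim fell by 2.07 ± 0.41 (SE) from PHx to S-RBC rats (limma, adjusted p = 0.0249) and by 2.12 ± 0.41 to HAES rats (limma, adjusted p = 0.0114). The call against S-RBC rats was lost without any 1 of PHx replicates 1 and 3 and the 3 S-RBC arrays (adjusted p 0.0633 to 0.133), and that against HAES rats without PHx replicate 1 or 3 (0.0557 and 0.0649). F-RBC against PHx gave −0.48 (limma, adjusted p = 0.618), which turned to 0.01 without F-RBC replicate 1.

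Des, which encodes the intermediate filament desmin of quiescent and activated stellate cells in the rat and of muscle cells, was at 7.39, 5.72 and 7.62 in PHx rats. Naive rats had 5.82, 5.57 and 6.11, bleeding rats 5.74, 5.70 and 5.83, F-RBC rats 5.80, 6.22 and 5.90, S-RBC rats 5.09, 5.83 and 5.50, and HAES rats 5.59, 5.61 and 5.77. Only PHx replicates 1 and 3 stood above the other groups, and PHx replicate 2 lay among them. Des did not pass the test in any comparison, with −1.44 for S-RBC against PHx (limma, adjusted p = 0.067) and −1.26 for HAES against PHx (limma, adjusted p = 0.0661). Without PHx replicate 2 these became −2.04 and −1.85, with adjusted p of 0.000808 and 0.00195. Myl9, the regulatory light chain of smooth muscle myosin, had a mean of 6.69 ± 0.04 (SD, n = 3) in PHx rats and 5.58 ± 0.07 in S-RBC rats and passed no test. All 4 of these contractile and cytoskeletal genes were lower in bleeding, F-RBC, S-RBC and HAES rats than in PHx rats, by a median of 1.09, 0.73, 1.76 and 1.69 on the log2 scale.

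**Figure D3:**
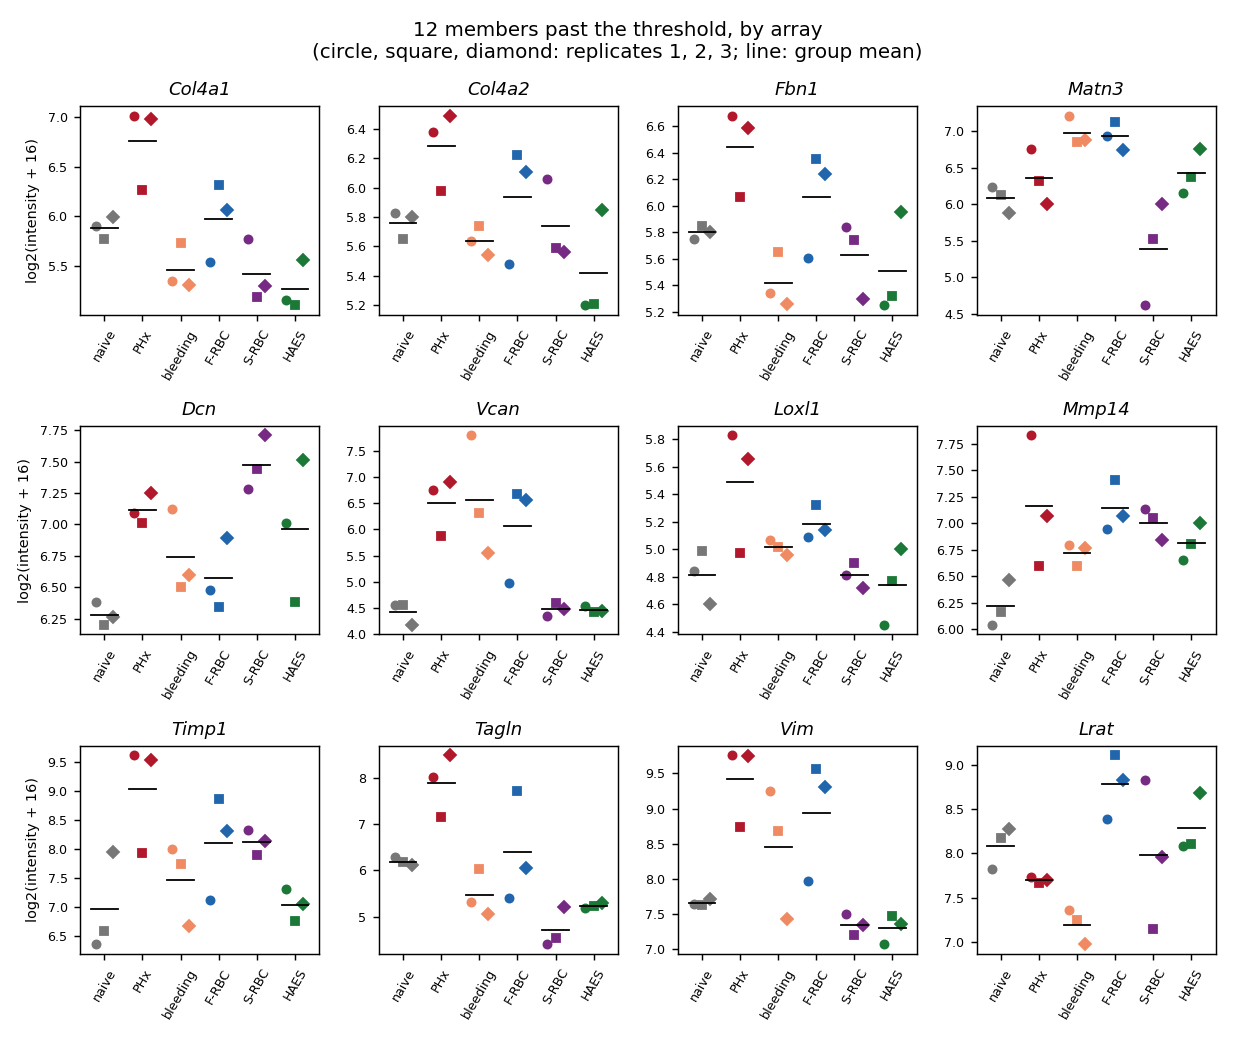
Level of each of the 12 genes that passed a test, in log2(intensity + 16), by array in the 6 groups (circles, squares and diamonds are replicates 1, 2 and 3, lines are group means). Tagln, Vim and Col4a1 are lower in every S-RBC and HAES rat than in every PHx rat, and Vcan is near 4.5 in naive, S-RBC and HAES rats.

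Type IV collagen genes were highest in PHx rats as well. Col4a1 was at 7.01, 6.27 and 6.98 in PHx rats and 5.90, 5.77 and 5.99 in naive rats. Bleeding rats had 5.35, 5.73 and 5.31, F-RBC rats 5.54, 6.32 and 6.06, S-RBC rats 5.77, 5.19 and 5.30, and HAES rats 5.16, 5.11 and 5.56. Every PHx rat lay above every rat of the other groups except F-RBC replicate 2. Col4a1 fell by 1.33 ± 0.23 (SE) from PHx to S-RBC rats (limma, adjusted p = 0.0137) and by 1.47 ± 0.23 to HAES rats (limma, adjusted p = 0.00385), while bleeding against PHx gave −1.29 (limma, adjusted p = 0.117). The difference to HAES rats held without any array of the groups (adjusted p at most 0.0292), and that to S-RBC rats was lost without PHx replicate 1 or 3 or S-RBC replicate 3 (0.0541 to 0.0857). Without PHx replicate 2, Col4a1 also passed between bleeding and PHx rats, at −1.53 (adjusted p = 0.039).

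Col4a2, which shares the promoter region printed above, was at 6.38, 5.98 and 6.49 in PHx rats and 5.20, 5.21 and 5.85 in HAES rats, which did not overlap. Naive rats had 5.83, 5.65 and 5.80, bleeding rats 5.64, 5.74 and 5.54, F-RBC rats 5.48, 6.22 and 6.11, and S-RBC rats 6.06, 5.59 and 5.56. Replicate 1 of the S-RBC rats thus lay above the lowest PHx rat. The gene fell by 0.86 ± 0.22 (SE) from PHx to HAES rats (limma, adjusted p = 0.0459), a call lost without PHx replicate 1 or 3 or HAES replicate 1 or 2 (adjusted p 0.128 to 0.192). The other 4 genes of this group, Col6a2, Col6a3, Col14a1 and Col15a1, encode chains of collagens that bind fibrils or basement membranes and passed no test. All 6 were lower in S-RBC and in HAES rats than in PHx rats.

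Fibrillar collagen genes, which encode the chains of the type I, III and V fibres of scar and capsule, passed no test in any comparison. Col1a1 was at 5.62, 5.66 and 5.96 in naive rats, 6.61, 5.72 and 6.33 in PHx, 5.68, 5.97 and 5.60 in bleeding, 6.07, 6.55 and 6.45 in F-RBC, 5.46, 5.55 and 5.68 in S-RBC and 5.59, 5.30 and 6.05 in HAES rats. Its 3 F-RBC rats lay above all naive, bleeding, S-RBC and HAES rats. Col1a2 was at 5.99, 6.22 and 6.88 in naive, 7.51, 6.44 and 7.19 in PHx, 5.92, 6.10 and 5.69 in bleeding, 6.34, 7.08 and 6.84 in F-RBC, 6.85, 5.55 and 5.82 in S-RBC and 5.87, 5.50 and 6.84 in HAES rats. PHx and F-RBC rats lay above all bleeding rats, and S-RBC replicate 1 and HAES replicate 3 lay about 1 unit above the other rats of their groups. Col3a1 was at 8.77, 8.69 and 8.92 in naive, 8.75, 8.55 and 8.70 in PHx, 7.87, 8.04 and 8.02 in bleeding, 7.96, 8.52 and 8.68 in F-RBC, 8.84, 7.82 and 8.20 in S-RBC and 8.08, 7.52 and 8.86 in HAES rats. All bleeding rats lay below all naive and PHx rats for this gene. Against PHx rats all 5 fibrillar genes were lower in bleeding, S-RBC and HAES rats, with medians of −0.54, −0.45 and −0.51.

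Between HAES and PHx rats 8 of the 41 genes passed, all of them lower in HAES rats, where 1.07% of all probe sets fell, and this was the comparison with the most calls. Besides Tagln, Vim, Col4a1 and Col4a2 these were Vcan, Timp1, Fbn1 and Loxl1. Of the 41 genes 37 were lower in HAES rats, with a median of −0.48 against 0.02 over all probe sets, and the arrays did not overlap for 13 of them, a pattern of 9.14% of all probe sets. Between S-RBC and PHx rats 3 passed, all lower (Tagln, Vim and Col4a1), where 0.218% of all probe sets fell. Here 36 of the 41 genes were lower, with a median of −0.45, and 12 did not overlap, against 6.04% of all probe sets. The count for HAES rats was 2 without PHx replicate 1 or 3, 3 without HAES replicate 1 or 2, 6 without HAES replicate 3 and 12 without PHx replicate 2. It was also 4 with an offset of 1, 4 with the replicate number as a block and 0 with an adjusted test that drew its spread from the 6 arrays of the groups alone. For S-RBC rats it was 1 without PHx replicate 1 or 3 or S-RBC replicate 3, 2 without S-RBC replicate 1 or 2 and 6 without PHx replicate 2.

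**Figure D4:**
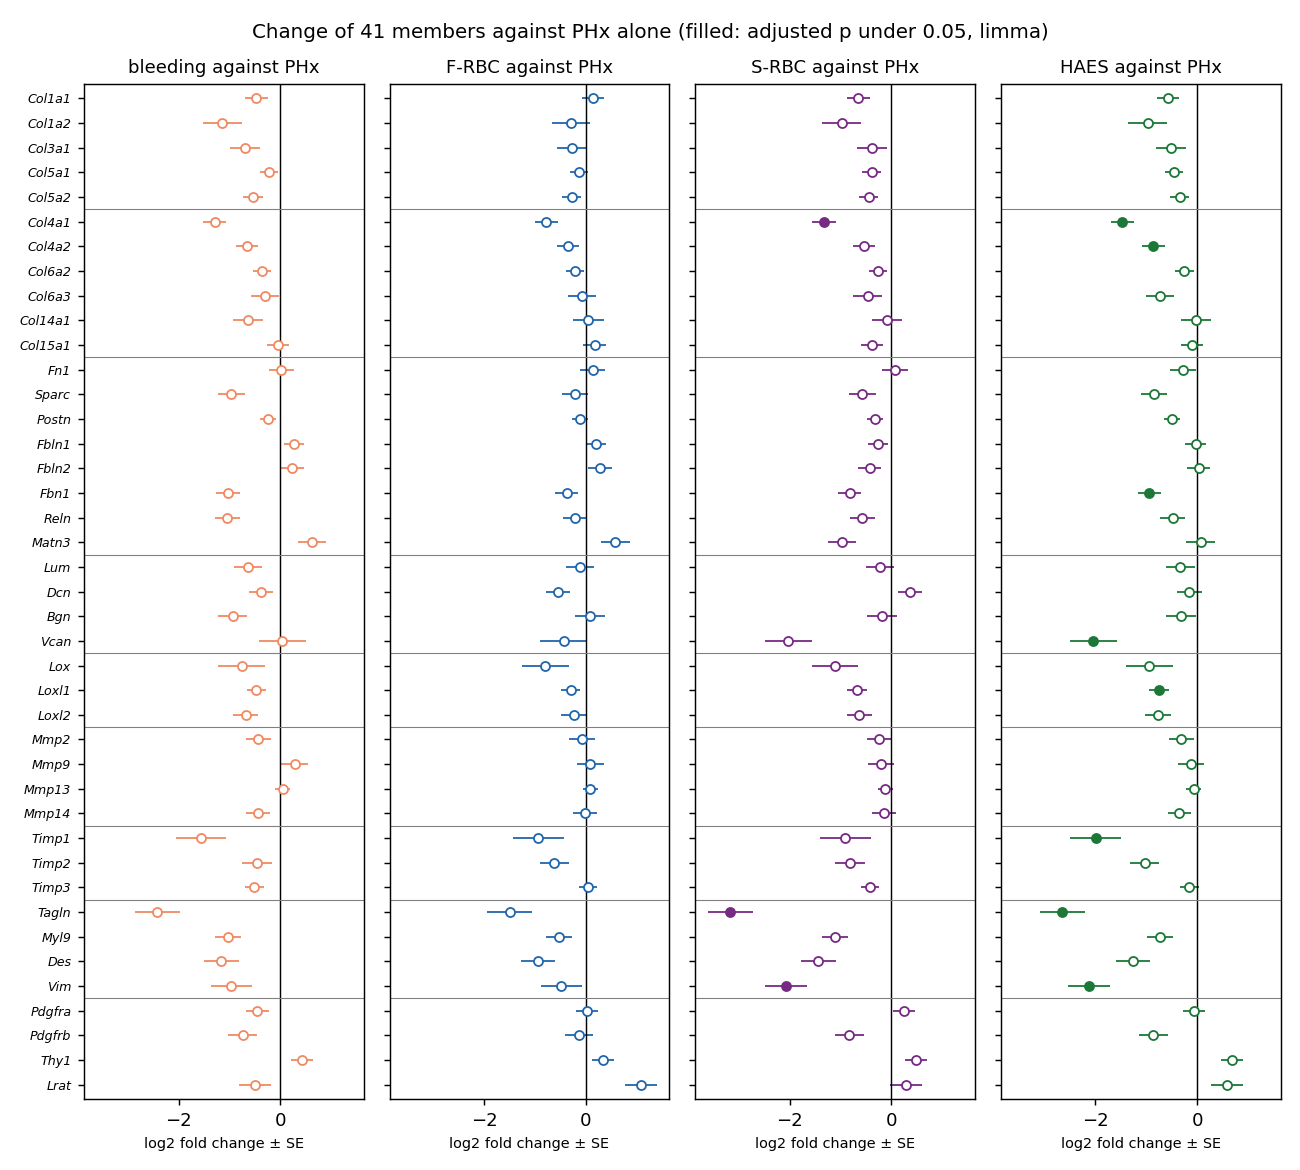
Log2 fold change ± SE (limma) of the 41 genes in bleeding, F-RBC, S-RBC and HAES rats against the same 3 PHx rats, in order of role (filled points passed the test). Points of the S-RBC and HAES panels lie mostly left of 0, with 36 and 37 genes lower, and no point is filled for bleeding or F-RBC rats.

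Bleeding and F-RBC rats were also set against PHx rats. In bleeding rats 33 of the 41 genes were lower, with a median of −0.50 against 0.03 over all probe sets, and 16 of them did not overlap, a pattern of 9.76% of all probe sets. None passed the test, as was true of all probe sets (limma, 0% passed, 21 of the 41 genes at an unadjusted p under 0.05), but 4 passed after median centring of the arrays and 6 with array weights. In F-RBC rats 27 were lower, with a median of −0.14 against 0.10, and none passed (limma, 6 at an unadjusted p under 0.05), where 0.172% of all probe sets did. After median centring 36 of the 41 genes were lower in F-RBC than in PHx rats. In the uncentred fit without F-RBC replicate 1 only 19 were lower and 22 higher, with a median of 0.01. Over all probe sets F-RBC replicates 2 and 3 had median deviations of 0.10 and 0.11, against −0.02, −0.06 and 0.00 in PHx rats. The uncentred direction thus rested on F-RBC replicate 1, and a centred fit without that array was not run.

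Markers of recruited macrophages moved with Tagln, Vim and Vcan across naive, PHx, S-RBC and HAES rats, but less so in bleeding rats. Of 9 such markers all were higher in PHx than in naive rats and 4 passed (limma): Spp1 by 3.00 (adjusted p = 0.042), Gpnmb by 2.82 (0.0305), Mmp12 by 2.34 (0.0476) and Lgals3 by 2.03 (0.0367). In the 6 fits that each left out an array of these groups, all 4 stayed past only without PHx replicate 2. Spp1, Mmp12 and Gpnmb fell from PHx to HAES rats, with log2 changes of −3.36, −3.22 and −2.80 (limma, adjusted p 0.00834, 0.0031 and 0.00952), and from PHx to S-RBC rats, with −3.29, −3.26 and −2.66 (limma, 0.0177, 0.00714 and 0.0251). Of these 6 calls both of Mmp12 and that of Spp1 in HAES rats held without any array, and the other 3 were lost at least without PHx replicate 1 or 3. The summed intensity of the 9 markers was 275 to 450 in naive, 720 to 2920 in PHx, 292 to 666 in bleeding, 396 to 1040 in F-RBC, 406 to 550 in S-RBC and 367 to 386 in HAES rats. Spp1 was at 8.47, 5.80 and 9.20 in the PHx rats, so that PHx replicate 2 was the lowest there as it was for Tagln, Vim, Vcan and Timp1. In bleeding rats, where Vcan had its highest mean (6.55), Mmp12 was at 5.25, 5.70 and 5.19, against 5.34, 6.66 and 5.56 in naive rats. Spp1 (6.56, 6.83 and 5.02) and Gpnmb (6.91, 7.50 and 5.71) lay above all naive rats in bleeding replicates 1 and 2. The means of Dcn, Matn3 and Lrat were highest in groups other than PHx.

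**Figure D5:**
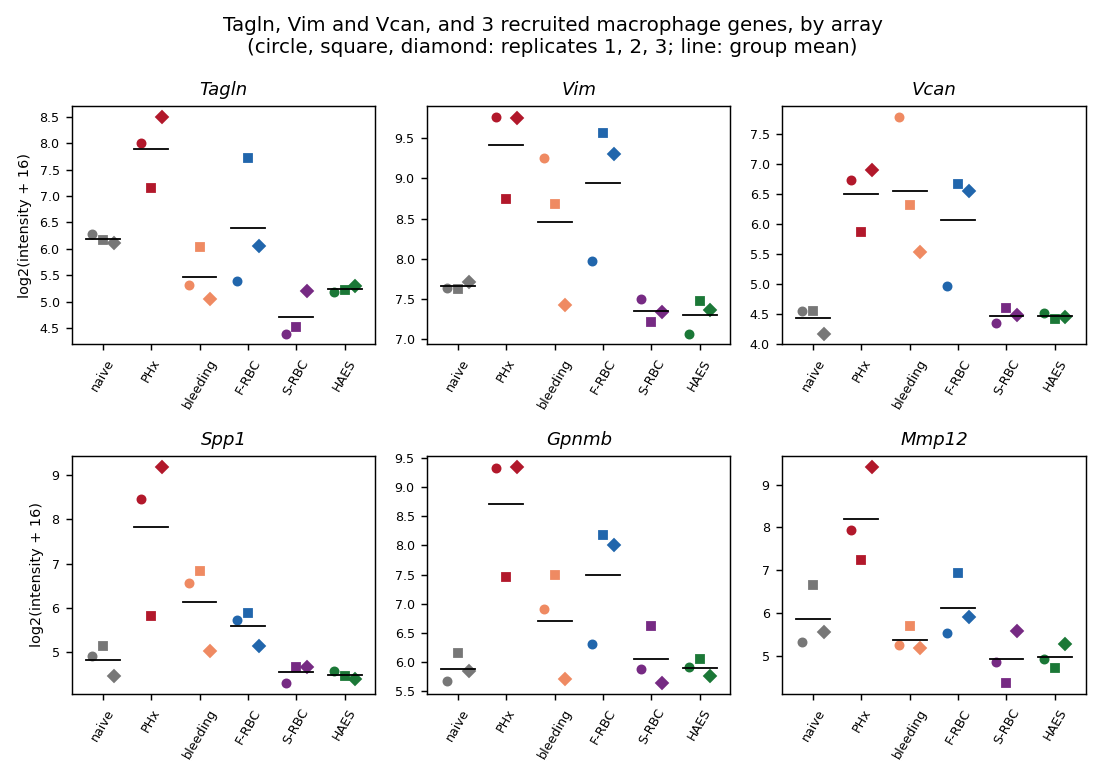
Levels of Tagln, Vim and Vcan (top) and of the recruited macrophage genes Spp1, Gpnmb and Mmp12 (bottom) in log2(intensity + 16), by array (circles, squares and diamonds are replicates 1, 2 and 3, lines are group means). PHx replicate 2 is the lowest PHx rat in all 6 panels, and every S-RBC and HAES rat lies below every PHx rat.

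Other cell types were checked in the same way. Of 11 neutrophil markers S100a8 and S100a9 passed as higher in PHx than in naive rats and as lower in HAES than in PHx rats, and the summed intensity was 123 to 153 in naive, 278 to 360 in PHx, 194 to 377 in bleeding, 174 to 244 in F-RBC, 206 to 279 in S-RBC and 124 to 159 in HAES rats. S100a8 also passed as higher in S-RBC than in naive rats, by 1.22 (limma, adjusted p = 0.0195, lost without S-RBC replicate 3 or naive replicate 2). Of these 5 neutrophil calls only that of S100a9 between HAES and PHx rats held without any array. S100a9 also passed as lower in HAES than in bleeding rats, at −1.15 (limma, adjusted p = 0.0489), a call that was not refitted without single arrays. Of 8 adipocyte markers only the fatty acid binding protein gene Fabp4 passed, as higher in PHx than in naive rats by 1.56 (limma, adjusted p = 0.0425) and as lower than in PHx rats in S-RBC (−1.72, 0.0177) and HAES rats (−2.37, 0.00258), of which the last held without any array. The 8 markers were split in HAES against PHx rats, with 5 lower, 3 higher and a median of −0.14. Endothelial markers summed to 788 to 1030 in bleeding, 1540 to 1770 in F-RBC and 1420 to 1610 in S-RBC rats. This sum was 976 to 1500 in naive, 1110 to 1630 in PHx and 1120 to 1210 in HAES rats. Of 8 endothelial markers the cadherin gene Cdh5 was the 1 that passed in comparisons with PHx rats. It was at −0.87 in S-RBC (limma, adjusted p = 0.0486) and −1.05 in HAES rats (0.00902) against PHx rats. The first of these calls was lost without any array and the second without PHx replicate 3 (0.0542). In S-RBC rats 5 of the 8 endothelial markers were higher than in PHx rats and in HAES rats 2 were. Against bleeding rats 7 of the 8 were higher in F-RBC rats and all 8 in S-RBC rats. Ehd3 passed as higher in F-RBC (limma, adjusted p = 0.033) and S-RBC rats (1.57, 0.0216) than in bleeding rats. Lyve1 passed as higher in F-RBC than in bleeding (0.84; limma, adjusted p = 0.0339) and naive rats (0.69, 0.0336). The calls of Ehd3 and Lyve1 were not refitted without single arrays. Mesothelial markers summed to 246 to 438 in naive, 317 to 373 in PHx, 303 to 310 in bleeding, 271 to 382 in F-RBC, 413 to 445 in S-RBC and 295 to 446 in HAES rats. S-RBC rats thus lay above all PHx, bleeding and F-RBC rats in this sum. The mesothelial gene Lrrn4 passed as higher in S-RBC than in bleeding rats, by 0.73 (limma, adjusted p = 0.0472), a call that was not refitted without single arrays. Msln lay between 5.14 and 5.76 and Upk3b between 4.53 and 5.32. Krt19, a defining gene of bile duct cells, was between 4.52 and 5.15. Kupffer cell markers summed to 1600 to 2440 in naive, 2590 to 2740 in PHx, 1370 to 2160 in bleeding, 1390 to 2530 in F-RBC, 2180 to 2970 in S-RBC and 1890 to 2320 in HAES rats. All PHx rats thus lay above all naive, bleeding, F-RBC and HAES rats in this sum, while S-RBC rats overlapped with them. None of the markers of Kupffer cells, T cells, B and plasma cells, skeletal muscle or pancreas passed between PHx and naive, S-RBC or HAES rats. Hepatocyte markers summed to 26500 to 33900 over all groups, and F-RBC rats (30100 to 33900) lay above all PHx (27400 to 29200) and bleeding rats (27100 to 29500). Of 9 such markers the cytochrome P450 gene Cyp2e1 rose from PHx to HAES rats by 1.30 (limma, adjusted p = 0.00271, held without any array) and to F-RBC rats by 1.17 (0.0199, remaining only without F-RBC replicate 2), and the urea cycle gene Ass1 passed in 5 other comparisons. Ttr was lower in F-RBC than in naive rats (−0.40; limma, adjusted p = 0.0272). Fgb was higher in S-RBC than in naive rats (0.40, 0.0207) and Cps1 in F-RBC than in bleeding rats (0.76, 0.0149). The calls of Ttr, Fgb and Cps1 were not refitted without single arrays. The part of macrophages, neutrophils, mesothelium, hepatocytes, fat and endothelium in the differences of the matrix genes was not tested.

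Vcan encodes versican, a large chondroitin sulfate proteoglycan of provisional matrix that macrophages can also make, and its levels split the groups 3 against 3. Its level was 4.56, 4.56 and 4.18 in naive, 4.35, 4.60 and 4.49 in S-RBC and 4.53, 4.42 and 4.45 in HAES rats, close to the value of 4 that an intensity of 0 would give. PHx rats had 6.74, 5.87 and 6.91, bleeding rats 7.79, 6.32 and 5.54, and F-RBC rats 4.98, 6.67 and 6.55. Every rat of the latter 3 groups lay above every rat of the former 3. Vcan rose from naive to bleeding rats by 2.12 ± 0.46 (SE; limma, adjusted p = 0.0399) and to F-RBC rats by 1.63 ± 0.46 (limma, adjusted p = 0.046). The naive, S-RBC and HAES intensities of Vcan lay below the median of every array, so the size of each Vcan difference against them depended on the offset. With an offset of 1 in place of 16 the first was 3.62 and the second 2.98, with an offset of 64 they were 1.09 and 0.77 and neither passed, and the ratios of mean intensities were 17.4 and 10.3. It fell from PHx to HAES rats, by −2.04 on the log2 scale (limma, adjusted p = 0.0276), and from bleeding rats to S-RBC (−2.07, 0.031) and HAES rats (−2.09, 0.0312). S-RBC against PHx gave −2.03 (limma, adjusted p = 0.0533), and S-RBC against F-RBC −1.58 (0.0997).

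None of the 5 Vcan calls held in every fit that left out an array. In bleeding against naive rats the call remained only when bleeding replicate 3 was left out (adjusted p 0.0902 to 0.154 in the other 5 fits). In F-RBC against naive rats it remained only without F-RBC replicate 1 (0.0859 to 0.181 in the others). In HAES against PHx rats it remained only without PHx replicate 2 (0.0533 to 0.131), in HAES against bleeding rats only without bleeding replicate 3 (0.06 to 0.107), and in S-RBC against bleeding rats without bleeding replicate 3 or S-RBC replicate 3 (0.0583 to 0.109 in the others).

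Dcn encodes decorin, a small leucine-rich proteoglycan that binds collagen fibrils and TGF-β, and unlike Vcan it was highest in S-RBC rats. The S-RBC rats had 7.28, 7.44 and 7.71 and the naive rats 6.38, 6.20 and 6.26. PHx rats had 7.09, 7.01 and 7.25, bleeding rats 7.12, 6.50 and 6.60, F-RBC rats 6.48, 6.34 and 6.89, and HAES rats 7.01, 6.38 and 7.51. Every S-RBC rat lay above every naive, PHx, bleeding and F-RBC rat, and HAES replicate 3 lay among the S-RBC rats. Dcn rose by 1.20 ± 0.24 (SE) from naive to S-RBC rats (limma, adjusted p = 0.0105), the only 1 of the 41 genes to pass there, where 2.56% of all probe sets rose. It stayed past the threshold without any array (adjusted p at most 0.0428). S-RBC against F-RBC rats gave 0.91 (limma, adjusted p = 0.0818). Lum and Bgn, the related lumican and biglycan genes, passed no test.

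Matn3 encodes matrilin 3, an adaptor protein best known from cartilage matrix. It was at 7.21, 6.85 and 6.88 in bleeding rats, 6.93, 7.13 and 6.74 in F-RBC rats and 4.62, 5.52 and 6.01 in S-RBC rats. Naive rats had 6.24, 6.13 and 5.88, PHx rats 6.75, 6.32 and 6.0, and HAES rats 6.15, 6.37 and 6.76. The S-RBC rats lay below all bleeding, F-RBC and HAES rats, with the lowest value in S-RBC replicate 1, the array that stood apart. Matn3 fell by 1.60 ± 0.28 (SE) from bleeding to S-RBC rats (limma, adjusted p = 0.00937, at most 0.0407 without any array). It was also the only 1 of the 41 genes to pass between S-RBC and F-RBC rats, where 0.417% of all probe sets were lower, at −1.55 ± 0.28 (limma, adjusted p = 0.0323). That difference was −1.17 (adjusted p = 0.0747) without S-RBC replicate 1, and was also lost without F-RBC replicate 1 (0.0822) or 2 (0.138).

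S-RBC and F-RBC rats, which differed in the storage of the red blood cells, showed lower levels in S-RBC rats for 37 of the 41 genes, with a median of −0.35 against −0.07 over all probe sets. Median centring left 31 lower, with a median of −0.16, and the uncentred median was −0.22 without S-RBC replicate 2. Tagln gave −1.68 (limma, adjusted p = 0.0801) and Vim −1.59 (limma, adjusted p = 0.0767). For Vim all F-RBC rats lay above all S-RBC rats, and for Tagln likewise, with F-RBC replicate 1 at 5.40 the closest to the S-RBC rats.

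Fbn1 encodes fibrillin 1, the backbone of extracellular microfibrils. It was at 6.68, 6.07 and 6.59 in PHx rats, 5.75, 5.85 and 5.80 in naive, 5.34, 5.65 and 5.26 in bleeding, 5.61, 6.35 and 6.24 in F-RBC, 5.84, 5.74 and 5.30 in S-RBC and 5.25, 5.32 and 5.95 in HAES rats. All PHx rats lay above all rats of the other groups but F-RBC replicates 2 and 3. From PHx to HAES rats it fell by 0.94 ± 0.23 (SE; limma, adjusted p = 0.0414), a call lost without PHx replicate 1 or 3 or HAES replicate 1 or 2 (adjusted p 0.122 to 0.163). Of the other 6 glycoprotein genes besides Matn3, Fn1 (fibronectin), Sparc, Postn (periostin), Fbln1, Fbln2 (fibulins) and Reln (reelin, a marker of stellate cells), none passed a test. Reln had means of 7.28 ± 0.12 (SD, n = 3) in PHx rats and 6.25 ± 0.08 in bleeding rats.

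Timp1 encodes an inhibitor of matrix metalloproteinases that stellate cells, hepatocytes and macrophages can secrete. Its level was 9.62, 7.93 and 9.53 in PHx rats, 6.35, 6.58 and 7.94 in naive, 8.0, 7.74 and 6.66 in bleeding, 7.11, 8.86 and 8.31 in F-RBC, 8.32, 7.90 and 8.13 in S-RBC and 7.31, 6.75 and 7.05 in HAES rats. PHx replicates 1 and 3 were the highest of the 18, PHx replicate 2 lay just under naive replicate 3, and the HAES rats lay below all PHx rats. Timp1 fell by 1.99 ± 0.50 (SE) from PHx to HAES rats (limma, adjusted p = 0.048), a call that remained only when PHx replicate 2 was left out (adjusted p 0.0682 to 0.198 in the other 5 fits). Bleeding against PHx gave −1.56 (limma, adjusted p = 0.286). Timp2 and Timp3 passed no test.

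Mmp14 encodes the membrane-bound metalloproteinase that cuts fibrillar collagen and activates the gelatinase made from Mmp2. It was at 6.04, 6.16 and 6.46 in naive and 6.95, 7.41 and 7.07 in F-RBC rats, with 7.83, 6.60 and 7.07 in PHx, 6.79, 6.60 and 6.77 in bleeding, 7.13, 7.05 and 6.84 in S-RBC and 6.65, 6.80 and 7.00 in HAES rats. All naive rats lay below all other rats. It rose by 0.92 ± 0.23 (SE) from naive to F-RBC rats (limma, adjusted p = 0.029), and Mmp14 and Vcan were the 2 genes of 41 to pass there, where 4.9% of all probe sets rose, so the share is near the background. Of the 41 genes 33 were higher in F-RBC than in naive rats, with a median of 0.29 against 0.14 over all probe sets, but after median centring 23 were higher, with a median of 0.02, and without F-RBC replicate 3 the uncentred median was 0.18. The Mmp14 call was lost without naive replicate 1 or 2 or F-RBC replicate 2 or 3 (adjusted p 0.0631 to 0.128). The gelatinase genes Mmp2 and Mmp9 and the collagenase gene Mmp13 passed no test.

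Loxl1 encodes a lysyl oxidase that crosslinks elastin and collagen. It was at 5.83, 4.97 and 5.66 in PHx rats, 4.84, 4.99 and 4.60 in naive, 5.07, 5.02 and 4.96 in bleeding, 5.09, 5.32 and 5.14 in F-RBC, 4.81, 4.90 and 4.72 in S-RBC and 4.45, 4.77 and 5.0 in HAES rats. PHx replicate 2 lay just below HAES replicate 3, so the groups overlapped, although Loxl1 fell by 0.75 ± 0.19 (SE) from PHx to HAES rats (limma, adjusted p = 0.0475). Without any array but PHx replicate 2 this call was lost (adjusted p 0.0513 to 0.194). Lox and Loxl2, of the same enzyme family, passed no test.

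Lrat encodes the enzyme that esterifies retinol for storage in stellate cells, and its highest mean was in F-RBC rats and not in PHx rats. It was at 8.39, 9.11 and 8.83 in F-RBC rats and 7.36, 7.25 and 6.97 in bleeding rats. Naive rats had 7.82, 8.17 and 8.27, PHx rats 7.73, 7.66 and 7.70, S-RBC rats 8.83, 7.14 and 7.96, and HAES rats 8.08, 8.10 and 8.68. The bleeding rats lay below all naive, PHx, F-RBC and HAES rats, and the F-RBC rats above all naive, PHx and bleeding rats. Lrat rose by 1.58 ± 0.31 (SE) from bleeding to F-RBC rats (limma, adjusted p = 0.0182), the only 1 of the 41 genes to pass there, where 1.01% of all probe sets rose. The call was lost without bleeding replicate 2 or 3 or F-RBC replicate 2 or 3 (adjusted p 0.0666 to 0.106). F-RBC against PHx gave 1.08 (limma, adjusted p = 0.161). Between F-RBC and bleeding rats 33 of the 41 genes were higher in F-RBC rats, with a median of 0.35 against 0.07 over all probe sets, and 29 after median centring. The median was 0.52 without F-RBC replicate 1 and 0.18 without F-RBC replicate 2.

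Pdgfrb, the receptor through which platelet-derived growth factor drives stellate cell division and migration, was at 7.08, 5.86 and 6.46 in PHx and 6.02, 6.81 and 6.15 in F-RBC rats. Naive rats had 5.38, 5.49 and 5.76, bleeding rats 5.59, 5.79 and 5.80, S-RBC rats 5.95, 5.47 and 5.50, and HAES rats 5.40, 5.32 and 6.11. PHx and F-RBC rats lay above all naive and bleeding rats, and S-RBC replicate 1 and HAES replicate 3 reached into their range. Neither Pdgfrb nor Pdgfra or Thy1, a surface protein of portal fibroblasts, passed a test.

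Comparisons not yet named gave few or no calls among the 41 genes. Bleeding against naive gave Vcan alone, where 0.57% of all probe sets rose, and 24 of the 41 genes were lower. HAES against naive gave 0 (limma, 7 at an unadjusted p under 0.05), where 2.62% of all probe sets passed. S-RBC against bleeding gave Vcan and Matn3, where 0.84% of all probe sets fell, and HAES against bleeding gave Vcan alone, where 0.66% did. S-RBC against HAES and F-RBC against HAES gave 0 each (limma, 3 and 12 at an unadjusted p under 0.05), where 0.00545% and 0% of all probe sets passed. In the last of these 39 of the 41 genes were higher in F-RBC rats, with a median of 0.33 against 0.08 over all probe sets, and 34 after quantile normalization. The median was 0.51 without HAES replicate 3.

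Genes of the same pathways outside the 45 were read from fixed lists. Of 16 other stellate cell genes Rgs5, a regulator of G protein signalling in pericytes, rose against naive rats in PHx (1.01, adjusted p = 0.042), F-RBC (0.98, 0.012), S-RBC (1.17, 0.00422) and HAES rats (0.81, 0.0418; limma throughout). It did not pass in bleeding rats, with a mean of 6.60 against 6.41 in naive rats. Rgs5 was also higher in S-RBC than in bleeding rats, by 0.99 (limma, adjusted p = 0.0221), a call that was not refitted without single arrays. The list of 16 as a whole did not rise with it in PHx rats, where 7 were higher and 9 lower than in naive rats (median −0.03). Against naive rats 10 were higher and 6 lower in F-RBC, 4 and 12 in S-RBC, and 8 and 8 in HAES rats. Of 14 other smooth muscle genes Flna, an actin crosslinker, fell by 1.65 from PHx to S-RBC and to HAES rats (limma, adjusted p = 0.0147 and 0.00834), and Actg2, smooth muscle gamma actin, fell by 0.67 to HAES rats (0.0294). No other gene of the list passed in these comparisons.

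Enzymes that process collagen were higher than in naive rats in PHx rats and in F-RBC rats. Of 16 measured, 14 were higher in PHx than in naive rats with a median of 0.51, and 1 passed, Pcolce, which enhances the cutting of procollagen (1.19; limma, adjusted p = 0.0271). In F-RBC rats 14 of the 16 were higher than in naive rats, with a median of 0.43 against 0.14 over all probe sets, and 3 passed. Pcolce was among them (0.86; limma, adjusted p = 0.03), and it also passed as higher in S-RBC than in naive rats (0.90, 0.0331). Serpinh1, the collagen chaperone, fell by 1.42 from PHx to S-RBC rats (limma, adjusted p = 0.0235) and by 1.38 to HAES rats (0.0143), and the lysyl hydroxylase gene Plod2 fell by 1.93 to HAES rats (0.0194). Of 13 other collagens Col12a1 fell by 1.62 (limma, adjusted p = 0.0226), and of 10 laminin, nidogen and related genes Lamc1 fell by 1.34 (0.0188), both from PHx to HAES rats. The 13 other collagens were split there, with 7 lower and 6 higher (median −0.08), and 5 were higher and 8 lower in PHx than in naive rats. Of the 10 laminin, nidogen and related genes 8 were lower and 2 higher in HAES than in PHx rats (median −0.12). Nid1, which links laminin to type IV collagen, rose by 1.66 from bleeding to F-RBC rats (limma, adjusted p = 0.00633) and by 1.23 to S-RBC rats (0.0224).

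Of 22 other matrix proteinases and inhibitors 4 fell from PHx to HAES rats (limma): Mmp12, given above, Adamts9 by 0.88 (adjusted p = 0.0126), Plaur by 0.56 (0.0246) and Adamts1 by 0.84 (0.0281). Of 22 other glycoproteins and proteoglycans Ogn and Sparcl1 were the 2 that fell from naive to bleeding rats, by 1.70 (limma, adjusted p = 0.0217) and 0.80 (0.0226). Of 19 genes of the TGF-β and PDGF pathways Inhba, a subunit of activin, was the 1 that passed any test, being higher in F-RBC than in bleeding rats by 0.94 (limma, adjusted p = 0.0288), in HAES than in bleeding rats by 1.07 (0.0129) and in HAES than in naive rats by 0.76 (0.0479). Of 16 integrins and other matrix receptors 15 were higher in PHx than in naive rats and none passed there, while 2 passed as higher in F-RBC than in naive rats and 1 in S-RBC rats (limma).

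Few of the calls named from these pathway lists held when an array was left out, and some calls of the lists were not refitted. Flna, Mmp12 and Spp1 between PHx and HAES rats, Mmp12 between PHx and S-RBC rats, Nid1 between bleeding and F-RBC rats and Rgs5 between naive and S-RBC rats held without any array of their groups. Actg2, Plod2, Serpinh1, Col12a1, Lamc1, Adamts1, Adamts9 and Plaur between PHx and HAES rats were lost at least without PHx replicate 3, with adjusted p of 0.0512 to 0.131 where they were lost. Flna and Serpinh1 between PHx and S-RBC rats were lost at least without PHx replicate 1 or 3 or S-RBC replicate 1 or 3 (up to 0.134). Pcolce and Rgs5 between PHx and naive rats remained only without PHx replicate 2, and Pcolce between S-RBC and naive rats only without S-RBC replicate 2. Pcolce between F-RBC and naive rats was lost without F-RBC replicate 2 or 3 or naive replicate 1 or 2. Rgs5 between HAES and naive rats was lost without any array, and between F-RBC and naive rats without F-RBC replicate 2.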

How the data were processed

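The authors hybridised labelled DNA made from total liver RNA to Rat Gene 2.0 ST arrays and deposited 1 linear intensity per probe set and array. Affymetrix Power Tools with PLIER stand in the submitters' processing notes, and RMA is added in the methods. The methods take gene annotation from the Affymetrix annotation files, and a genome build is not given in the sources used here. Array medians differed, so the deposited intensities were not brought to a common distribution. Here log2(intensity + 16) of all 36685 probe sets was fitted with limma 3.58.1 in R 4.3.3 (1 mean per group over 18 arrays, 12 residual degrees of freedom, empirical Bayes with an intensity trend), with Benjamini-Hochberg adjustment over all probe sets and a threshold of 0.05, for an F-test over the 6 groups and 15 pairwise comparisons that share groups. The brightest probe set stood for a gene. The fit was tested on simulated data. With 3 separate rats per group, the number of arrays limits the precision, and no file gives a depth.

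Values of every array are given for the genes of the list that passed a test and for Des, Pdgfrb, Col1a1, Col1a2 and Col3a1, and the others by mean, range or count. From lists of related genes at most 4 were named where the list had calls, and defining markers of other cell types whatever their p. The 45 genes, the lists and the tests were chosen with earlier results of these data known. The fits were repeated with median centring, with quantile normalization, with an offset of 1 or 64, without dim probe sets, with array weights, with the replicate number as a block, with the methods' t-test (run unpaired) and without each array. They were run for the 45 genes as planned and, for genes outside the 45, as an addition chosen after seeing the data. No array was left out of the main results, and the columns of other samples numbered 0. The methods describe arrays, while other parts of the paper call the profiling RNA-seq.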

Additional observations from a re-analysis of the deposited data

Results flagged for a closer look

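Matn3 was picked out because it passed between S-RBC and F-RBC rats, the comparison given above. Taken against the same bleeding rats, its log2 change was lower in S-RBC than in F-RBC rats by the same difference, −1.55 ± 0.28 (SE; limma, adjusted p = 0.0323). The bleeding rats cancel out of this difference, so it is not a second test. The mean was 6.98 in bleeding, 6.94 in F-RBC and 5.38 in S-RBC rats. All 3 S-RBC rats lay below all 3 F-RBC rats, and without S-RBC replicate 1 the difference was −1.17 (adjusted p = 0.0747). The call was also lost without F-RBC replicate 1 (0.0822) or 2 (0.138).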

How the results depend on the processing

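Of the 20 changes between pairs of groups that passed, 5 stayed past the threshold in each of the 6 fits that left out an array of their groups (Tagln in S-RBC and in HAES against PHx, Col4a1 in HAES against PHx, Dcn in S-RBC against naive and Matn3 in S-RBC against bleeding), and 15 were lost in some of them. The count of the 41 genes past the threshold over the 6 groups was 8 and ran from 5 to 13 without 1 array. The counts ran from 0 to 7 for PHx against naive, 0 to 1 for bleeding against naive, 0 to 3 for F-RBC against naive, 1 to 2 for S-RBC against naive and 0 to 1 for HAES against naive. Against PHx they ran from 0 to 2 for bleeding, 0 to 1 for F-RBC, 1 to 6 for S-RBC and 2 to 12 for HAES. Against bleeding they ran from 0 to 3 for F-RBC, 1 to 3 for S-RBC and 0 to 1 for HAES, and for S-RBC against F-RBC from 0 to 1. S-RBC against HAES and F-RBC against HAES stayed at 0. Vim in F-RBC against PHx changed sign, from −0.48 to 0.01, without F-RBC replicate 1, the only change of sign among the named genes, and was −0.82 without PHx replicate 2.

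Quantile normalization gave 1 gene for F-RBC against naive and 5 for S-RBC against PHx. Median centring gave 1 for PHx, 2 for bleeding, 0 for F-RBC and 2 for S-RBC against naive, 4 for bleeding and 6 for S-RBC against PHx, 4 for S-RBC against bleeding and 2 for S-RBC against F-RBC. An offset of 1 gave 1 for PHx and 2 for S-RBC against naive, 4 for HAES against PHx and 0 for S-RBC against F-RBC. An offset of 64 gave 0 for bleeding against naive, and 1 for S-RBC and 0 for HAES against bleeding. With dim probe sets left out 2 passed for PHx against naive and 6 for S-RBC against PHx, and Loxl1 had no value. Array weights gave 22 over the 6 groups, 1 for PHx, 4 for bleeding and 8 for F-RBC against naive, 6 for bleeding and 1 for F-RBC against PHx, 7 for F-RBC and 2 for HAES against bleeding and 4 for S-RBC against F-RBC. The methods' t-test, run unpaired, gave from 2 genes for S-RBC against HAES to 18 for bleeding against naive at an unadjusted p under 0.05, with 13 for HAES against PHx, and 0 in all 15 comparisons after Benjamini-Hochberg adjustment. The causes of these moves were not tested.

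The replicate numbers did not pair the rats. Deviations of arrays with the same number correlated between −0.25 and 0.29, and 3 of 18 arrays correlated best with their own number. With the replicate number as a block 0 genes passed for bleeding and 1 for F-RBC against naive, 4 for HAES against PHx, and 1 for S-RBC and 0 for HAES against bleeding.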
